A study of Mus musculus with 32 samples.

Results

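The transcript of p53 itself, Trp53, and 32 canonical members of its target programme were followed gene by gene in mouse epidermis 24 h after a single UV exposure. The 33 genes were listed by symbol as textbook members of the pathway, with earlier results of these data known. All 33 were found among the 55401 gene identifiers counted. All of them passed the filter for testing, a level of 1 cpm (counts scaled to the total of the library) or more in at least 1 mouse, and Gdf15 passed it through 1 UV mouse alone. RNA sequencing covered the epidermis of 32 mice in 8 groups of 4, namely males and females of either genotype, with or without UV. All mice were hairless crosses labelled SKH-1/SV129/BL6/J, were 10 to 14 weeks old, and were either wild type or labelled Ppard-/-, which marks littermates deficient for the nuclear receptor PPARβ/δ. UV mice received 120 mJ/cm2 on the back from a lamp that emits mostly UVB and were killed 24 h later, and controls were handled in the same way without UV. The sample titles mark UV mice T24 and controls T0, and do not say how long after handling the controls were killed. Each sample was 1 mouse, so 8 UV mice stood against 8 controls in each genotype when the sexes were pooled.

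p53 is a transcription factor that is held at a low level by the ubiquitin ligase MDM2 and is stabilised, mostly as a protein, when DNA is damaged. It then raises genes that stop the cell cycle, that start apoptosis and that adjust metabolism, along with MDM2 itself, which closes a negative feedback loop. In keratinocytes UV is a classical inducer of this programme, and the cells that die after UV with p53 active are known as sunburn cells. No p53 protein and no p53 binding were measured here, so "target" refers to what is known of each gene and not to a finding in these mice.

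p53 binds pairs of 10-base recognition motifs (decamers), and promoters of 27 of the 33 genes could be read from RefSeq (GRCm38.p6) as 250 bases before to 50 bases after an annotated start. The decamer was searched by its published consensus on both strands, which for this palindromic motif give the same positions. An exact decamer stood in the promoters of 11 of the 27 genes (Trp53, Mdm2, Ppm1d, Cdkn1a, Ccng1, Gadd45a, Bax, Aen, Ei24, Sesn1 and Rps27l), against 9.55% of the 27025 genes with a promoter in the same set. Side-by-side decamers with at most 1 mismatch stood in those of Cdkn1a, Ccng1 and Rps27l, against 0.0814% of all genes. Cdkn1a was also the gene of the list with 2 exact decamers at most 13 bases apart, a pattern found in 0.074% of all genes. These matches are letters in a window, and p53 sites further from the start or inside introns were not searched. The 250 bases before the start of 4 genes are printed, 3 of them because they hold the side-by-side pair and Sesn1 because its transcript fell most in the list after UV. Exact decamers, and pairs with at most 1 mismatch, are in capitals. The windows are chr17:29090729-29090978 (plus strand), chr11:40755287-40755536 (minus strand), chr9:66946163-66946412 (plus strand) and chr10:41887189-41887438 (plus strand). The last pair lie before a further annotated start and within the gene as GENCODE M21 draws it, and the first pair reach the first bases of the first exon.
Cdkn1a: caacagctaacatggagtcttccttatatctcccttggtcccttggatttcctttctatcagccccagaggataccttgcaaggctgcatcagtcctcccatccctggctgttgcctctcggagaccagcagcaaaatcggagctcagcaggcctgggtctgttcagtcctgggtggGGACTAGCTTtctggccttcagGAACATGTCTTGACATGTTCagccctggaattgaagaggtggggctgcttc
Ccng1: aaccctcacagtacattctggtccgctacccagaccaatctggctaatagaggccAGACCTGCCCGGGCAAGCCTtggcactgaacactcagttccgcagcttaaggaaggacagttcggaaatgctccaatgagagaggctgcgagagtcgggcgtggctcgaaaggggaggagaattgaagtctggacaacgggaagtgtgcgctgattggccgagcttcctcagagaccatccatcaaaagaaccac
Rps27l: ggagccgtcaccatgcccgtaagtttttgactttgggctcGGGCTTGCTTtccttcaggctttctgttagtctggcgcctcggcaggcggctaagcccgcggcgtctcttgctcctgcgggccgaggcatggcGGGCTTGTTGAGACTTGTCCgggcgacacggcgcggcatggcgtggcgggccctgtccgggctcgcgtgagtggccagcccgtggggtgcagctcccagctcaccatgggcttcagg
Sesn1: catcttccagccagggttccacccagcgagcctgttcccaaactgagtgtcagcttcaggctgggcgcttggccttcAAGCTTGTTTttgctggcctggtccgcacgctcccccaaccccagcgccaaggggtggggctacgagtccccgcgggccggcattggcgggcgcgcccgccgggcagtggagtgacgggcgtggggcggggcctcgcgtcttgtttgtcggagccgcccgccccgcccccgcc

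In wild-type epidermis, 23 of the 33 genes rose after UV, 5 fell and 5 did not pass an adjusted p of 0.05, where 34.5% of the 15546 genes tested rose and 36.5% fell. In Ppard-/- epidermis 23 rose, 6 fell and 4 did not pass, where 37.3% of all genes rose and 33.5% fell. The tests were those of edgeR's quasi-likelihood model fitted to all 32 mice, with Benjamini-Hochberg adjustment over all genes tested and the sexes averaged. The genes that rose in both genotypes were Mdm2, Ppm1d, Cdkn1a, Ccng1, Btg2, Plk2, Bax, Pmaip1, Apaf1, Aen, Ei24, Trp53inp1, Tnfrsf10b, Pidd1, Eda2r, Phlda3, Zmat3, Sesn2, Ak1, Rps27l and Gdf15, 21 in all. Gdf15 entered the test through a single UV mouse, and without it 22 genes rose in each genotype and 20 in both. Mdm4, Triap1, Perp and Sesn1 fell in both, Fdxr passed in neither, and the other 7 (Trp53, Plk3, Gadd45a, Bbc3, Fas, Tigar and Rrm2b) passed in 1 genotype. The median log2 fold change of the list was 0.96 in wild-type and 0.94 in Ppard-/- mice, against -0.014 and 0.088 over all genes. Both UV comparisons have their own controls, and calls in 1 genotype alone are not tests of a difference between the genotypes, which are given further on.

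The mice themselves separated for most of the genes that rose. In 19 genes every wild-type UV mouse lay above every wild-type control, which held for 21.3% of all genes tested, and in 3 genes every UV mouse lay below, against 22.1%. In Ppard-/- mice the counts were 18 genes above, against 18.6%, and 3 below, against 16.5%. Both counts of genes above include Gdf15, which entered the test through a single UV mouse. The 3 genes below were Mdm4, Triap1 and Sesn1 in either genotype. Zmat3 and Ak1 separated in wild-type mice alone and Pidd1 in Ppard-/- mice alone.

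**Figure D1:**
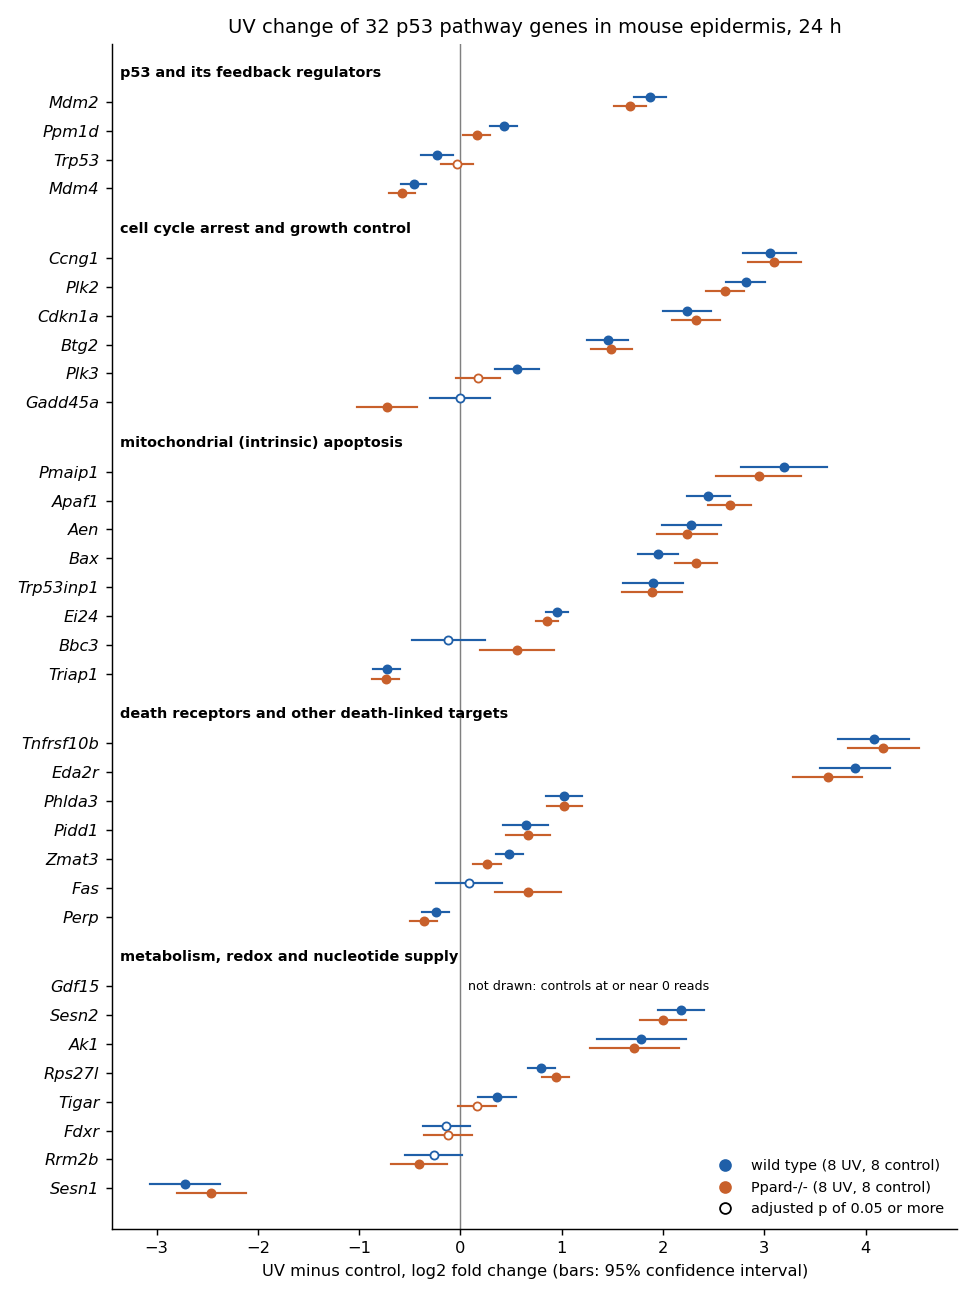
Log2 fold change after UV (horizontal axis, with 95% confidence intervals derived from edgeR's F statistic) for 32 of the 33 genes, grouped by role, in wild-type and Ppard-/- mice. Tnfrsf10b, Eda2r, Pmaip1 and Ccng1 lie farthest to the right and Sesn1 farthest to the left, and Gdf15 is not drawn because its controls were at or near 0 reads.

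Among p53 and its feedback regulators, Mdm2 and Ppm1d rose in both genotypes while the Trp53 transcript itself fell slightly or did not pass. Mdm2, the ligase that marks p53 for degradation, ranged from 62.8 to 80.2 cpm (median 72.1) in wild-type controls and from 224 to 310.0 cpm (median 253) after UV. Its Ppard-/- values ranged from 61.6 to 87.3 cpm (median 75.9) and from 174 to 304 cpm (median 248). The lowest UV mouse of either genotype lay well above the highest control, and the log2 fold change was 1.87 ± 0.078 (standard error; adjusted p = 2.17e-17) in wild-type and 1.67 ± 0.077 (adjusted p = 1.93e-16) in Ppard-/- mice. Ppm1d, a phosphatase that switches off the damage signal to p53, had medians of 56.9 and 74.6 cpm in wild-type and of 63.2 and 69.96 cpm in Ppard-/- mice, and UV mice overlapped controls in both. Its log2 fold change was 0.43 ± 0.066 (adjusted p = 1.84e-06) and 0.16 ± 0.066 (adjusted p = 0.033). The second call had the highest adjusted p of the list's UV calls with both sexes pooled and did not pass when any 1 of 9 Ppard-/- mice was left out (adjusted p = 0.0571 to 0.223 without 60F, 74F, 34M, 44M, 52M, 67M, 58M, 59M or 72M). It also did not pass in DESeq2 (adjusted p = 0.0536), with RLE scaling (0.0571), with filterByExpr (0.107) or without the filter (0.184).

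Mdm4, a relative of MDM2 that binds p53 and limits its activity, went the other way. It ranged from 129 to 183 cpm (median 172) in wild-type controls and from 111 to 129 cpm (median 122) after UV, and from 149 to 173 cpm (median 163) and 99.5 to 129 cpm (median 103) in Ppard-/- mice. No UV mouse overlapped a control of its genotype, and the log2 fold change was -0.46 ± 0.060 (adjusted p = 1.18e-07) and -0.58 ± 0.061 (adjusted p = 2.33e-09). Trp53 ranged from 59.6 to 79.4 cpm (median 68.99) in controls and from 53.8 to 67.4 cpm (median 57.7) after UV in wild-type mice, and from 46.9 to 70.5 cpm (median 61.3) in controls and from 42.7 to 65.3 cpm (median 61.4) after UV in Ppard-/- mice, with overlap in both. The wild-type change of -0.23 ± 0.077 passed (adjusted p = 0.00982), and the Ppard-/- value was -0.037 ± 0.077 (adjusted p = 0.677). Without wild-type control 61F or 73F the wild-type call did not pass (adjusted p = 0.0511 and 0.0728).

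The genes of cell cycle arrest and growth control mostly rose. In wild-type mice 5 of 6 were called higher, where 34.5% of all genes were. In Ppard-/- mice 4 of 6 were called higher, where 37.3% of all genes were. The median log2 fold change of these 6 was 1.85 and 1.91. Cdkn1a, which encodes the cyclin-dependent kinase inhibitor p21, ranged from 309 to 386 cpm (median 356) in wild-type controls and from 1336 to 2238 cpm (median 1610.0) after UV, and from 309 to 366 cpm (median 346) and 1233 to 2531 cpm (median 1706) in Ppard-/- mice. The controls of both genotypes sat in 1 narrow band and the UV mice spread over a wider one above it. Its log2 fold change was 2.24 ± 0.11 (adjusted p = 1.28e-15) and 2.32 ± 0.12 (adjusted p = 7.84e-16). Ccng1, cyclin G1, ranged from 33.7 to 51.1 cpm (median 40.7) in controls and from 295 to 402 cpm (median 339.9) after UV in wild-type mice, and from 29.02 to 59.8 cpm (median 37.01) in controls and from 253 to 506 cpm (median 349) after UV in Ppard-/- mice. It rose 8.31-fold and 8.58-fold (log2 fold change 3.05 ± 0.13 and 3.10 ± 0.13), with no overlap.

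Plk2, a polo-like kinase of the stress response, ranged from 62.2 to 82.4 cpm (median 74.2) in controls and from 447 to 613 cpm (median 489) after UV in wild-type mice, and from 60.1 to 94.0 cpm (median 88.3) in controls and from 349 to 669 cpm (median 493) after UV in Ppard-/- mice. It rose 7.04-fold (adjusted p = 3.16e-19) and 6.11-fold (adjusted p = 1.62e-18), with no overlap. Btg2, an antiproliferative protein, rose from a median of 89.2 to 242 cpm in wild-type and from 88.96 to 241 cpm in Ppard-/- mice, with log2 fold changes of 1.45 ± 0.10 and 1.49 ± 0.10. Plk3, another polo-like kinase, passed in wild-type mice alone. It ranged from 128 to 219.9 cpm (median 160.1) in controls and from 178 to 303 cpm (median 253) after UV in wild-type mice and rose by 0.56 ± 0.11 (adjusted p = 2.93e-05). In Ppard-/- mice it ranged from 138 to 259 cpm (median 190.2) in controls and from 146 to 277 cpm (median 212) after UV, where 0.17 ± 0.11 had an adjusted p of 0.143, and an adjusted p of 0.0459 without control 60F.

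Gadd45a, a small protein that blocks growth after DNA damage, had the pair of UV changes that lay furthest apart in the list. It ranged from 11.1 to 19.6 cpm (median 14.4) in wild-type controls and from 10.7 to 17.6 cpm (median 15.1) after UV, and the log2 fold change was -0.0051 ± 0.14 (adjusted p = 0.98). Its Ppard-/- values ranged from 15.1 to 30.9 cpm (median 17.6) and from 9.73 to 16.4 cpm (median 11.7), a change of -0.73 ± 0.14 that passed (adjusted p = 6.06e-05). UV mice overlapped controls in both genotypes, and the highest values of all were those of Ppard-/- controls.

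Of the 8 genes of mitochondrial apoptosis, 6 rose and 1 fell in wild-type mice, where 34.5% of all genes rose and 36.5% fell. In Ppard-/- mice 7 of the 8 rose and 1 fell, where 37.3% of all genes rose and 33.5% fell. The median log2 fold change of the 8 was 1.93 and 2.06. Pmaip1, which encodes the BH3-only protein NOXA, ranged from 9.42 to 33.1 cpm (median 18.4) in wild-type controls and from 112 to 249 cpm (median 170.1) after UV. In Ppard-/- mice it ranged from 18.9 to 27.5 cpm (median 20.5) and from 97.4 to 293 cpm (median 148). Both UV groups lay above their controls but varied widely, and the rise was 3.19 ± 0.21 (adjusted p = 1.49e-13) and 2.94 ± 0.21 (adjusted p = 7.33e-13). Bbc3, which encodes the related protein PUMA, stayed at a few cpm in every mouse. It ranged from 2.55 to 4.81 cpm (median 3.58) in controls and from 2.25 to 5.198 cpm (median 3.12) after UV in wild-type mice (-0.12 ± 0.18, adjusted p = 0.568) and from 1.42 to 4.08 cpm (median 2.75) in controls and from 3.07 to 5.09 cpm (median 4.15) after UV in Ppard-/- mice, where it rose by 0.56 ± 0.18 (adjusted p = 0.0065). UV mice and controls overlapped in both genotypes.

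Bax, the pore-forming protein that such BH3-only proteins switch on, ranged from 9.27 to 14.2 cpm (median 10.2) in controls and from 32.6 to 46.6 cpm (median 40) after UV in wild-type mice, and from 7.204 to 11.6 cpm (median 8.77) in controls and from 38.5 to 54.1 cpm (median 42.3) after UV in Ppard-/- mice. It rose by 1.95 ± 0.10 and 2.33 ± 0.10 on the log2 scale, with no overlap. Apaf1, the scaffold that activates caspase 9 once cytochrome c is released, ranged from 5.67 to 8.29 cpm (median 6.28) in controls and from 35.2 to 39.7 cpm (median 37.3) after UV in wild-type mice, and from 4.505 to 7.27 cpm (median 5.53) and 31.6 to 44.2 cpm (median 35.4) in Ppard-/- mice, a rise of 5.46-fold and 6.32-fold without overlap. The nuclease gene Aen rose by 2.28 ± 0.14 and 2.23 ± 0.14, Trp53inp1, which encodes a nuclear cofactor of p53, by 1.90 ± 0.15 and 1.89 ± 0.15, and Ei24, an endoplasmic reticulum protein gene, by 0.96 ± 0.052 and 0.85 ± 0.052. All 3 separated UV mice from controls in both genotypes. Triap1, a small protein known to hold back apoptosis, was the member of the group that fell. It ranged from 34.1 to 41.4 cpm (median 36.5) in controls and from 20.3 to 25.1 cpm (median 22.2) after UV in wild-type mice, and from 32.8 to 43.4 cpm (median 40.7) in controls and from 19.6 to 28.5 cpm (median 23.9) after UV in Ppard-/- mice. The change was -0.73 ± 0.064 (adjusted p = 6.67e-11) and -0.74 ± 0.064 (adjusted p = 5.53e-11), again with no overlap.

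**Figure D2:**
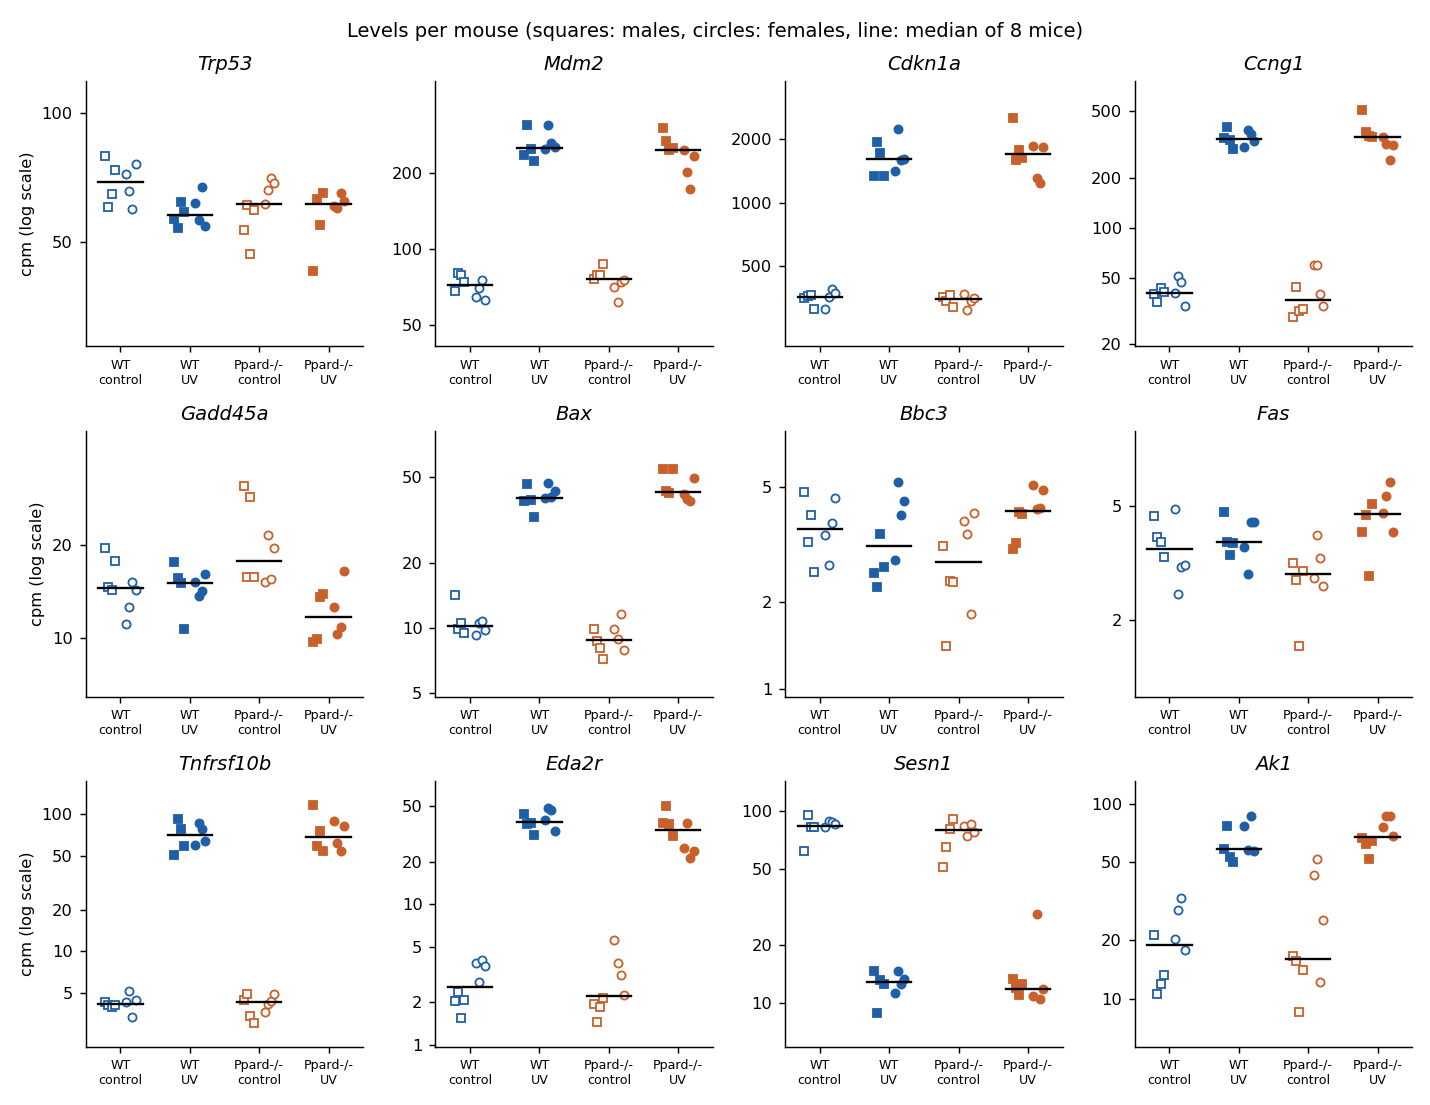
Expression in cpm (log axis) of 12 of the genes in each of the 32 mice, by genotype and treatment, with males as squares, females as circles and a line at the median of each 8 mice. Mdm2, Cdkn1a, Ccng1, Bax, Tnfrsf10b and Eda2r separate UV mice from controls, Sesn1 separates them in the opposite direction, and Trp53, Gadd45a, Bbc3 and Fas overlap.

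The death receptors and other death-linked targets included both Tnfrsf10b and Eda2r, with the largest rises among the 32 genes other than Gdf15, and Perp, the most abundant transcript of the list per length. Of 7 genes, 5 rose and 1 fell in wild-type mice, against 34.5% and 36.5% of all genes. In Ppard-/- mice 6 rose and 1 fell, against 37.3% and 33.5%. Tnfrsf10b, the receptor for the death ligand TRAIL, ranged from 3.297 to 5.16 cpm (median 4.16) in wild-type controls and from 50.7 to 92.97 cpm (median 70.4) after UV, and from 3.03 to 4.89 cpm (median 4.25) and 53.5 to 116 cpm (median 68.4) in Ppard-/- mice. It rose 16.9-fold (log2 fold change 4.08 ± 0.17, adjusted p = 2.33e-17) and 18.1-fold (4.18 ± 0.17, adjusted p = 1.9e-17). Eda2r, an X-linked receptor of the same family that binds an ectodysplasin isoform, ranged from 1.54 to 4.04 cpm (median 2.58) in controls and from 31.2 to 48.6 cpm (median 38.9) after UV in wild-type mice, and from 1.45 to 5.58 cpm (median 2.22) in controls and from 21.2 to 50.1 cpm (median 33.8) after UV in Ppard-/- mice. Both receptors were near the bottom of the list per length in controls, and in each the lowest UV mouse lay several-fold above the highest control. The Eda2r rise was 14.9-fold (adjusted p = 3.86e-17) and 12.4-fold (adjusted p = 1.66e-16). Fas, the receptor of FAS ligand, stayed low, at 2.46 to 4.89 cpm (median 3.53) and 2.89 to 4.75 cpm (median 3.73) in wild-type controls and UV mice (0.089 ± 0.16, adjusted p = 0.636). Its Ppard-/- values ranged from 1.63 to 3.96 cpm (median 2.89) in controls and from 2.86 to 6.07 cpm (median 4.697) after UV, and the rise was 0.67 ± 0.16 (adjusted p = 0.000541), with overlap.

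Perp, a desmosome protein that p53 and its relative p63 both control, ranked first of the 33 per length in both genotypes, with and without UV. It ranged from 4154 to 5596 cpm (median 4618) in controls and from 3582 to 4419 cpm (median 3972) after UV in wild-type mice, and from 4061 to 5830.0 cpm (median 5304) in controls and from 3122 to 5008 cpm (median 4047) after UV in Ppard-/- mice. It changed by -0.24 ± 0.066 on the log2 scale (adjusted p = 0.00176) and -0.36 ± 0.066 (adjusted p = 1.98e-05), with overlap between UV mice and controls. Phlda3, an inhibitor of the kinase AKT, rose 2.03-fold and 2.04-fold, from medians of 77.9 and 85.7 cpm. Pidd1, a death domain protein, rose by 0.65 ± 0.11 and 0.67 ± 0.11 from medians of 5.09 and 4.38 cpm. Zmat3, an RNA-binding zinc finger protein, rose by 0.48 ± 0.066 (adjusted p = 2.28e-07) and 0.26 ± 0.066 (adjusted p = 0.000832).

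The genes of metabolism, redox control and nucleotide supply moved in both directions. In wild-type mice 5 of 8 were higher and 1 lower, where 34.5% of all genes rose and 36.5% fell. In Ppard-/- mice 4 were higher and 2 lower, where 37.3% of all genes rose and 33.5% fell. The higher genes of either genotype include Gdf15, which entered the test through a single UV mouse. The 2 sestrins, stress proteins that restrain the growth kinase complex mTORC1, went opposite ways. Sesn2 ranged from 60.2 to 95.9 cpm (median 73.2) in controls and from 249 to 464 cpm (median 321) after UV in wild-type mice, and from 66.8 to 101 cpm (median 81.5) in controls and from 264 to 391 cpm (median 332) after UV in Ppard-/- mice, a rise of 2.17 ± 0.11 (adjusted p = 1.06e-15) and 2.00 ± 0.11 (adjusted p = 5.61e-15). Sesn1 ranged from 62.2 to 95.3 cpm (median 83.9) in wild-type controls and from 8.91 to 14.8 cpm (median 12.8) after UV, and from 51.01 to 91.02 cpm (median 79.4) and 10.5 to 29.1 cpm (median 11.9) in Ppard-/- mice. Its change of -2.72 ± 0.17 (adjusted p = 5.49e-14) and -2.46 ± 0.17 (adjusted p = 4.03e-13) was the largest decrease in the list. UV mice of both sestrins lay clear of their controls on opposite sides.

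The highest Sesn1 value after UV, 29.1 cpm, belonged to the Ppard-/- female 54F, whose 6 fibroblast markers summed to 1982 cpm where no other mouse exceeded 92.2 cpm. Without that mouse the Ppard-/- change was -2.69, and with the summed muscle and fibroblast levels as covariates it was -2.52 in both genotypes. In bulk RNA, fewer cells of a type and less RNA per cell cannot be told apart. The 6 suprabasal keratinocyte markers summed to between 62160 and 72700 cpm in wild-type controls and between 9020 and 21870 cpm after UV. The sums in Ppard-/- mice lay between 57140 and 100600 cpm and between 5352 and 26280 cpm. All 6 were called lower in both genotypes, and their part in the changes of Sesn1, Mdm4, Triap1 and Perp was not tested.

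Ak1, a cytosolic adenylate kinase that is abundant in skeletal muscle, ranged from 10.5 to 32.9 cpm (median 18.9) in controls and from 50.1 to 87.03 cpm (median 58.3) after UV in wild-type mice, and from 8.48 to 52.3 cpm (median 16.01) in controls and from 52.1 to 86.9 cpm (median 67.6) after UV in Ppard-/- mice. It rose by 1.78 ± 0.21 (adjusted p = 2.58e-08) and 1.72 ± 0.21 (adjusted p = 5.22e-08). The 8 skeletal muscle markers, which varied between 7.32 and 3772 cpm in sum, moved with Ak1 among the controls, where 60F had both the most muscle RNA and the most Ak1 (52.3 cpm). In mice with less than 100 cpm of these markers, a limit set after the data were seen, Ak1 was at 10.5 to 11.9 cpm in 2 wild-type controls and at 50.1 to 76.98 cpm in 6 wild-type UV mice, and at 8.48 to 15.6 cpm in 4 Ppard-/- controls and 52.1 to 86.8 cpm in 5 Ppard-/- UV mice. Those 2 wild-type controls were males, and 62F was the only female among the 4 Ppard-/- controls. With the muscle and fibroblast levels as covariates, also added after the data were seen, the log2 fold change of Ak1 was 2.09 in wild-type and 1.83 in Ppard-/- mice. The part of muscle RNA in the rise was not tested.

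**Figure D3:**
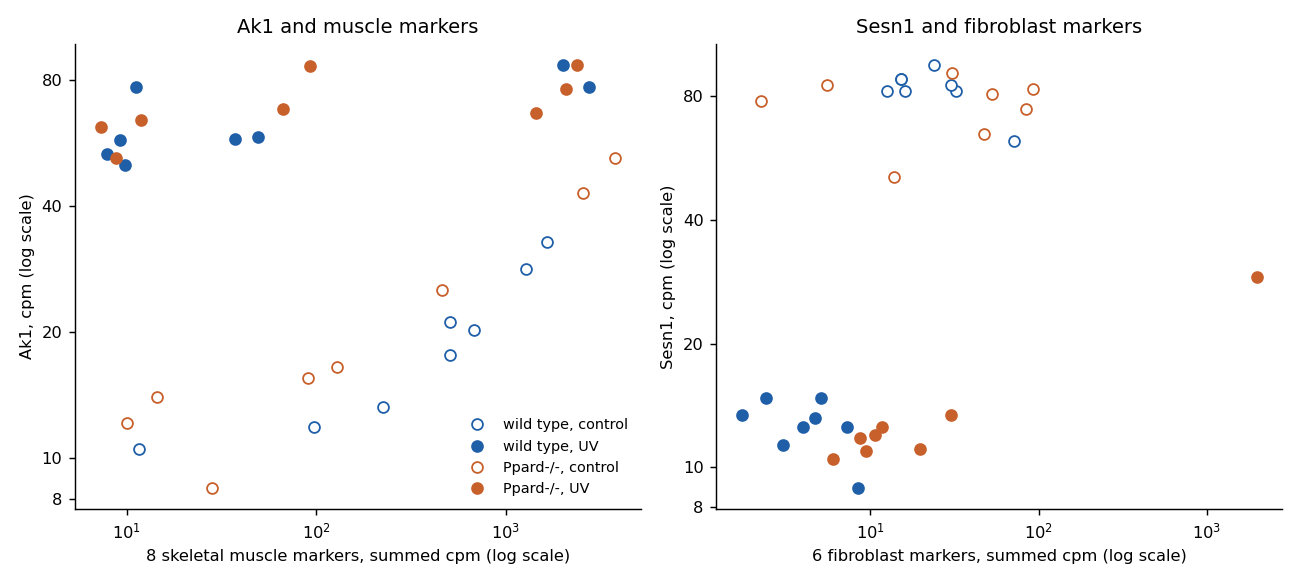
Ak1 (left) against the summed cpm of 8 skeletal muscle markers and Sesn1 (right) against that of 6 fibroblast markers, in cpm on log axes, 1 point per mouse by genotype and treatment. Under 100 cpm of muscle markers, a limit set after the data were seen, every UV mouse lies above every control in Ak1. The part of muscle RNA in the Ak1 rise was not tested. In the right panel, 54F is the UV mouse far to the right with the highest Sesn1 of its group.

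Rps27l, a ribosomal protein S27 paralog, ranged from 34.9 to 41.5 cpm (median 39.05) in controls and from 60.9 to 73.3 cpm (median 67.5) after UV in wild-type mice, and from 31.2 to 44.7 cpm (median 38.2) in controls and from 58.6 to 92.1 cpm (median 72.7) after UV in Ppard-/- mice. It rose 1.74-fold and 1.92-fold, without overlap. Tigar, an enzyme that turns glucose away from glycolysis, rose in wild-type mice (0.36 ± 0.092, adjusted p = 0.000945) and had 0.16 ± 0.092 (adjusted p = 0.116) in Ppard-/- mice. Rrm2b, the ribonucleotide reductase subunit that p53 controls, fell in Ppard-/- mice (-0.41 ± 0.14, adjusted p = 0.00887). Its wild-type value of -0.27 ± 0.14 had an adjusted p of 0.0829, which became 0.0149 without wild-type control 43M and 0.0452 without Ppard-/- UV female 74F. Fdxr, a mitochondrial ferredoxin reductase, gave -0.14 ± 0.11 and -0.12 ± 0.11 (adjusted p = 0.293 and 0.348).

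Gdf15, a secreted cytokine of the TGF-β family, had few or no reads without UV and was scarce with it. In wild-type mice it had 126 reads over the 8 UV mice and 1 read over the 8 controls, of which 7 had no read. The ratio per sequenced read was 118, with a 95% exact binomial interval of 20.7 to 4681. Ppard-/- mice had 135 reads after UV and 4 as controls, 6 of which had none, a ratio of 33.96 with an interval of 12.96 to 126. The intervals cover counting error only, and in cpm the UV mice ranged from 0.3099 to 0.932 in wild-type and from 0.164 to 1.01 in Ppard-/- mice. The edgeR call passed in both genotypes, but Gdf15 entered the test through 1 UV mouse that reached 1 cpm, so the call carries no weight of its own, and no fitted fold change is given against such controls.

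Compared per kb of merged exons, the order of the genes changed with UV. In wild-type controls Perp was first at a median of 2366 cpm per kb, and Cdkn1a second at 100.2 cpm per kb, followed by Plk3 at 63.2 cpm per kb. After UV Perp was still first at 2035 cpm per kb and Cdkn1a second at 453 cpm per kb, and Phlda3 followed at 112.5 cpm per kb. Plk2 went from rank 13 to rank 4, Ccng1 from 17 to 6, Pmaip1 from 21 to 10 and Tnfrsf10b from 30 to 20. Sesn1 went from rank 10 to rank 27. Rrm2b and Gdf15 were the lowest after UV in both genotypes. These levels are medians without a test.

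**Figure D4:**
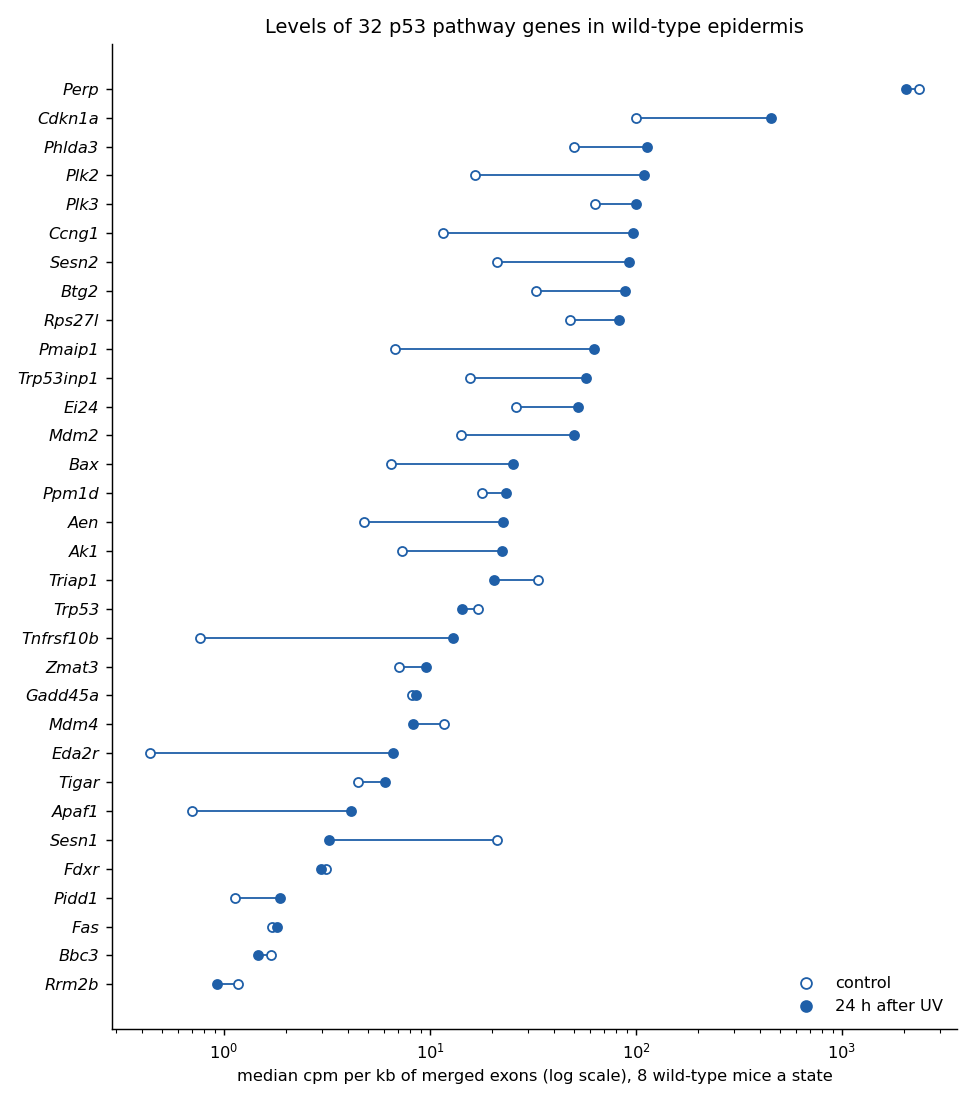
Median level in cpm per kb of merged exons (log axis) of 32 genes in 8 wild-type controls (open points) and 8 wild-type UV mice (filled points), with Gdf15 left out because its control median was 0. Perp and Cdkn1a lead in both states, and Sesn1 shows the longest shift to the left.

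The genotypes were compared directly through the genotype-by-UV interaction, the UV change in Ppard-/- mice minus that in wild-type mice. No gene of the 33 passed (edgeR), where 0.765% of all genes did, and 7 had an unadjusted p under 0.05, against 19.6% of all genes. DESeq2 called 2, Gadd45a (-0.76, adjusted p = 0.0165) and Ppm1d (-0.31, adjusted p = 0.0472), with 8 at an unadjusted p under 0.05, and limma called none, with 7. In edgeR the Gadd45a difference was -0.72 (95% interval -1.14 to -0.31, adjusted p = 0.0768), and it passed without Ppard-/- control 44M (-0.79, adjusted p = 0.0483) or Ppard-/- UV female 74F (-0.84, adjusted p = 0.0394). The other 6 were Ppm1d (-0.27, adjusted p = 0.126), Plk3 (-0.39, 0.155), Zmat3 (-0.22, 0.19), Bbc3 (0.68, 0.142), Bax (0.38, 0.132) and Fas (0.58, 0.161). For 29 of the 32 genes other than Gdf15, the 95% interval of the difference lay within 2-fold in either direction, and for 23 within 1.5-fold. The 3 with wider bounds were Gadd45a, Bbc3 (0.16 to 1.19) and Fas (0.12 to 1.04). A missed threshold does not show that the genotypes responded alike, and these intervals are the size of difference the data allow.

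Without UV, no gene of the 33 passed between the genotypes (edgeR), where 0.206% of all genes did. At an unadjusted p under 0.05 there were 8, against 8.52% of all genes, namely Trp53 (-0.18), Ppm1d (0.15), Gadd45a (0.44), Bbc3 (-0.40), Bax (-0.22), Apaf1 (-0.26), Fas (-0.33) and Pidd1 (-0.27). DESeq2 and limma also called none, with 7 and 8 at an unadjusted p under 0.05. After UV no gene passed (edgeR), where 3.31% of all genes did, and 3 had an unadjusted p under 0.05, against 20.1%: Mdm4 (-0.16), Plk3 (-0.25) and Pidd1 (-0.25). DESeq2 called 1 of the 33 after UV, Mdm4 (-0.18, adjusted p = 0.0472), with 6 at an unadjusted p under 0.05, and limma none, with 4. In edgeR Mdm4 passed without Ppard-/- UV male 59M (-0.21, adjusted p = 0.034), and in females alone Mdm2 (-0.39, adjusted p = 0.0462), Ei24 (-0.30, adjusted p = 0.0351) and Pidd1 (-0.48, adjusted p = 0.0479) passed. In both states the 95% interval of all 32 genes other than Gdf15 lay within 2-fold. The UV mice of the 2 genotypes also differed in fibroblast RNA, with all 6 fibroblast markers called higher in Ppard-/- mice (edgeR). Their summed medians after UV were 4.33 cpm in wild-type and 11.2 cpm in Ppard-/- mice, of which 54F held 1982 cpm. The part of this RNA in the genotype differences was not tested.

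**Figure D5:**
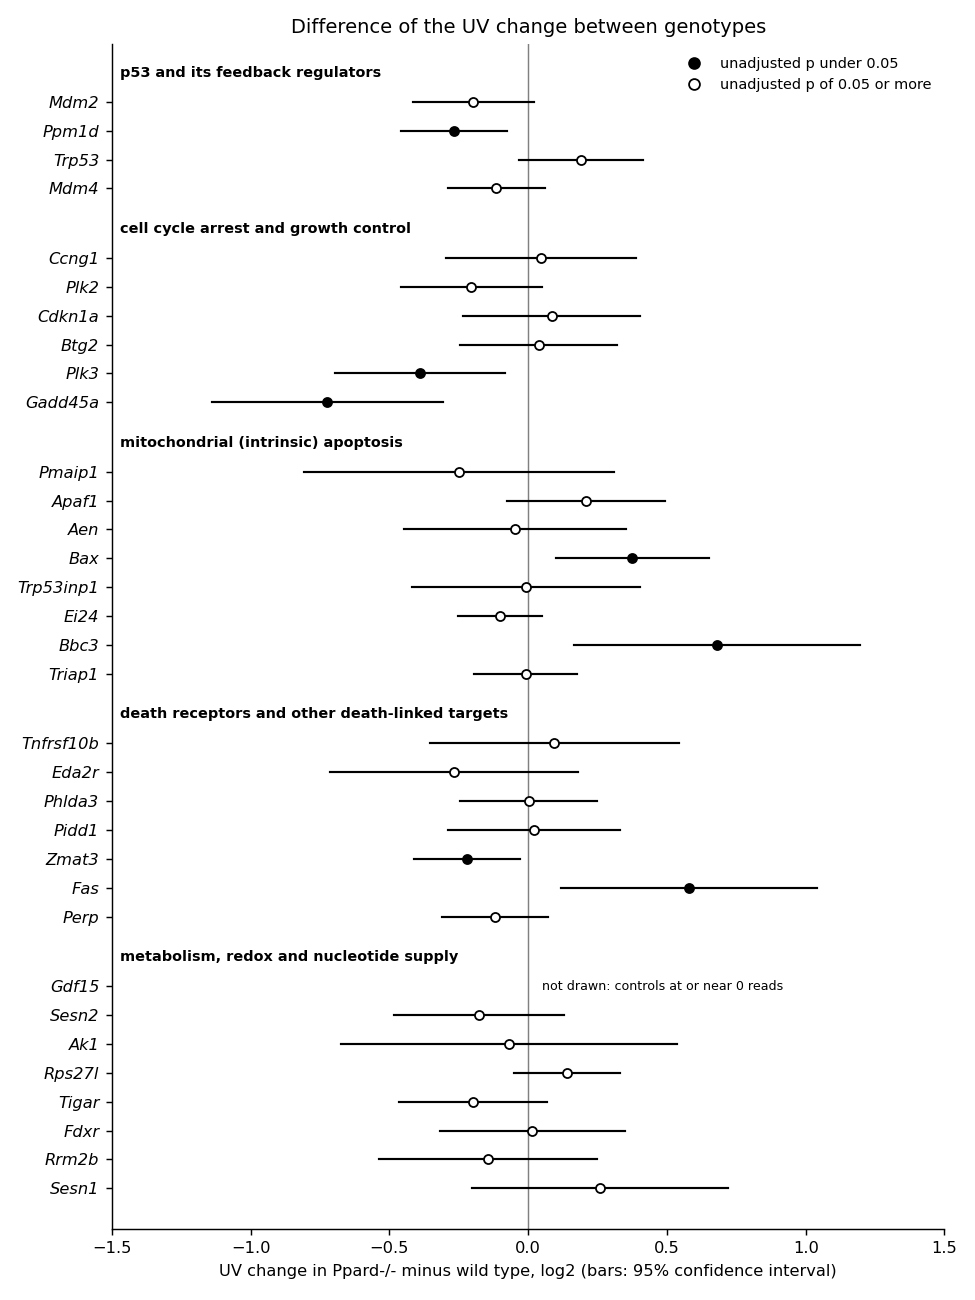
Log2 difference between the UV changes, Ppard-/- minus wild type, with 95% intervals, for 32 genes, where filled points have an unadjusted p under 0.05. No point passed an adjusted p of 0.05 in edgeR, and Gadd45a, Bbc3 and Fas have the values of this difference that lie farthest from 0.

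The targeted gene checks the labels in part. Ppard ranged from 87.3 to 104.9 cpm in wild-type and from 70.3 to 88.9 cpm in Ppard-/- controls (-0.26, adjusted p = 0.156), and from 252 to 326 cpm and 175 to 239 cpm after UV (-0.42, adjusted p = 0.00114). Which part of the gene is deleted is not stated in the sources used here, so reads from the rest of the gene cannot be set apart. Cdkn1a is the only gene of the list on the chromosome of Ppard, 790 kb away, and its genotype difference was -0.030 in controls and 0.055 after UV.

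Taken by sex and genotype, 4 UV mice against 4 controls, 28 of the 33 genes passed in wild-type males, where 60.9% of all genes did, and 26 in wild-type females, against 61.3%. In Ppard-/- mice 28 passed in males, against 61.7%, and 27 in females, against 60.7%. Each of these counts includes Gdf15, which entered the test through a single UV mouse. The same 20 genes rose in all 4 groups, which are the 21 that rose in both genotypes except Ppm1d (19 without Gdf15), and Mdm4, Triap1 and Sesn1 fell in all 4. The sex-by-UV interaction, the UV change in females minus that in males, passed for none of the 33 in edgeR, and for 0% of all genes. At an unadjusted p under 0.05 there were 4, against 7.02% of all genes: Ccng1 (-0.47), Eda2r (-1.08), Sesn2 (0.34) and Ak1 (-0.74). DESeq2 called 1, Eda2r, and limma none, each with 4 at an unadjusted p under 0.05. For 30 of 32 genes the interval of the sex difference lay within 2-fold, the exceptions being Eda2r and Ak1.

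Eda2r had the smallest unadjusted p of the sex difference. Control females held 3.56 ± 0.550 cpm (SD, n = 4) in wild-type and 3.704 ± 1.402 cpm in Ppard-/- mice, and control males 2.01 ± 0.353 and 1.86 ± 0.301 cpm. All 8 control females lay above all 8 control males except for 1 pair of values, 2.27 cpm in a Ppard-/- female and 2.39 cpm in a wild-type male. After UV the means were 42.3 ± 7.17 cpm in wild-type females, 37.6 ± 5.29 cpm in wild-type males, 27.1 ± 7.41 cpm in Ppard-/- females and 38.9 ± 8.15 cpm in Ppard-/- males. The UV change was 3.57 and 2.87 in females and 4.22 and 4.38 in males, for wild-type and Ppard-/- mice in turn. The difference of -1.08 ± 0.22 had an adjusted p of 0.317 in edgeR, 0.00182 in DESeq2, and 0.0252 in edgeR with the muscle and fibroblast levels as covariates (-1.16).

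Single UV mice were high or low across much of the list at once. Among the wild-type UV mice, the female 57F held the highest value for 12 of the 32 genes other than Gdf15, where it was highest for 15% of all genes tested, and the male 71M the lowest for 15 of 32, where it was lowest for 9.2% of all genes. Among the Ppard-/- UV mice, the male 58M was highest for 12 of 32, against 14.4% of all genes, and the female 66F lowest for 16 of 32, against 13.3%. The library of 58M had the highest share of the 32 both of multiply aligned reads (38.8%, median 33.1%) and of uniquely aligned reads on no gene (9.75%, median 8.69%), and the part of this in its values was not tested. For the 22 genes other than Gdf15 that rose in the genotype, 57F and 58M lay a median of 0.24 and 0.23 above the middle of their 8 mice on the log2 scale, and 71M and 66F lay 0.18 and 0.26 below it. Over all genes that rose, the same medians were between -0.0098 and 0.021. These are descriptions without a test. The number of genes called higher was 22 or 23 in either genotype whichever mouse was left out, with Gdf15 counted wherever it was tested.

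Other genes of the p53 pathway were taken from 3 lists. Of 13 upstream regulators and p53 relatives, 1 rose and 9 fell in wild-type mice, and 2 rose and 8 fell in Ppard-/- mice. Those past a 2-fold change in both genotypes were the DNA damage kinase gene Prkdc (-2.30 ± 0.13 and -1.87 ± 0.13 for wild-type and Ppard-/- mice), the p53 relative Trp73 (-2.31 ± 0.22 and -1.19 ± 0.22), the p53-activating kinase gene Hipk2 (-1.25 ± 0.19 and -1.20 ± 0.19) and Cdkn2a (-1.18 ± 0.49 and -1.28 ± 0.48), whose medians lay between 0.19 and 0.64 cpm. Cdkn2a reached at most 1.57 and 2.12 cpm in controls and 0.697 and 0.721 cpm after UV. It thus entered the test through controls alone, so its call carries no weight of its own. The genes that fell in this list include it in both genotypes. Of 26 further p53 targets, 24 were tested, 10 rose and 8 fell in wild-type mice, and 13 rose and 8 fell in Ppard-/- mice. Those past a 2-fold change in both genotypes included Gtse1 (2.42 ± 0.18 and 2.60 ± 0.19), the receptor kinase Epha2 (2.47 ± 0.13 and 2.29 ± 0.12), the translesion polymerase Polk (2.40 ± 0.078 and 2.21 ± 0.077), Igfbp3 (-2.31 ± 0.22 and -1.41 ± 0.22) and the sestrin Sesn3 (-1.65 ± 0.12 and -1.61 ± 0.12). Sesn3 fell like Sesn1 and unlike Sesn2. The shares of these 2 lists can be read against all genes, of which 34.5% rose and 36.5% fell in wild-type mice. In Ppard-/- mice 37.3% of all genes rose and 33.5% fell.

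The third list held 12 cell cycle genes that p53 is known to lower through p21 and the DREAM repressor complex. In wild-type mice 8 fell and 0 rose (edgeR, with 0 higher at an unadjusted p under 0.05, and 0 in DESeq2 and limma), and the median log2 fold change was -0.64. In Ppard-/- mice 3 rose and 0 fell (edgeR, with 0 lower at an unadjusted p under 0.05 and 0 called by DESeq2 and limma), with a median of 0.052. Over all genes 36.5% fell and 34.5% rose in wild-type mice, and 33.5% fell and 37.3% rose in Ppard-/- mice. The interaction was called for 0 of 12 by edgeR, DESeq2 and limma, with 8, 7 and 5 at an unadjusted p under 0.05, against 19.6%, 22.4% and 18% of all genes. The interaction values ran from 0.24 to 1.02. The Ppard-/- minus wild-type difference ran from -0.58 to -0.21 in controls (median -0.40) and from -0.018 to 0.58 after UV (median 0.31). By edgeR, DESeq2 and limma it was called for 0 of 12 in either state. At an unadjusted p under 0.05 there were 1 and 3, against 8.52% and 20.1% of all genes in edgeR. Without control female 61F, 5 fell and 1 rose in wild-type mice, in males alone 2 fell and 1 rose and in females alone 7 fell and 0 rose, and in Ppard-/- mice 2 fell without UV female 66F and 1 fell without 52M or without 72M. The UV change in females minus that in males was negative by value in all 12, from -0.65 to -0.086, and was called for 0 of 12 by edgeR, DESeq2 and limma, with 1 at an unadjusted p under 0.05 in each, against 7.02% of all genes in edgeR. Cdkn1a, the gene for p21, had an interaction value of 0.084 (-0.23 to 0.40).

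The libraries held 22919428 to 40653581 counts on genes (median 27600228.5). The defining markers of keratinocytes were abundant in every mouse, with 5321 to 29500 cpm in the 6 basal markers. Among other cells, the summed T cell markers ranged from 19.7 to 128 cpm, those of Langerhans cells from 214 to 899.8 cpm and those of neutrophils and monocytes from 20.9 to 64.9 cpm. Adipocyte, endothelial, red blood cell and melanocyte markers summed to at most 28.4 cpm. After UV 7 of 7 T cell and 4 of 6 Langerhans cell markers fell in wild-type mice, and 5 of 7 and 4 of 6 in Ppard-/- mice, where the other 2 Langerhans cell markers rose. Of 5 neutrophil and monocyte markers tested, 4 rose in each genotype and 1 fell in Ppard-/- mice. Of 4 endothelial markers tested, 4 rose in wild-type and 3 in Ppard-/- mice, and of the 6 basal keratinocyte markers 3 rose and 2 fell in wild-type and 4 rose and 1 fell in Ppard-/- mice. Of the 6 fibroblast markers 3 fell and 0 rose in wild-type mice, and 0 were called in Ppard-/- mice. The part of these cells in the changes of the 33 genes was not tested. Several genes share genomic sequence with another gene on the same strand (Bax, Fas, Sesn1, Sesn2 and Rrm2b) or on the opposite one (Mdm4, Cdkn1a, Plk3, Gadd45a, Apaf1, Ei24, Tigar and Rrm2b), and the strand setting of the counting is not given in the sources used here.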

How the data were processed

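Epidermal RNA of 32 mice was sequenced as single reads from poly(A) libraries, 1 library per mouse. Per the labels, the RNA quality numbers were 6.4 to 8.4, and the study's methods give a higher range. The authors trimmed the reads (cutadapt 1.8), aligned them with STAR 2.5.3a and counted reads per gene with HTSeq 0.9.1, and the submitters' processing notes name the build GRCm38. The values are the counts per gene as the authors deposited them, neither normalized nor filtered. Lines for reads on no gene (6.80% to 9.75% of uniquely aligned reads), ambiguous and multiply aligned reads entered neither library sizes nor tests. Of the 55401 gene identifiers, 55141 are in GENCODE M21, which gave positions and merged exon lengths.

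The 15546 genes that reached 1 cpm in any mouse were tested. Counts were scaled by TMM and fitted with a mean for each of the 8 groups in edgeR 4.0.16 (R 4.3.3), as quasi-likelihood tests of contrasts that average the sexes, with Benjamini-Hochberg adjustment over all genes tested. The study fitted limma-trend with a fold change over 1.5, and here limma 3.58.1 and DESeq2 1.42.0 were alternatives beside RLE scaling, filterByExpr, no filter, each sex or genotype alone, sex as an additive term and leaving out each mouse. Covariates for muscle and fibroblast levels were added after the data were seen. The main fit was also run on simulated counts, in which a small set of genes was changed in wild-type UV mice and all others were equal. That setting cannot show how the scaling or the fit behaves where most genes change, as after UV here. Marker and pathway lists, the 33 genes and their roles were chosen with earlier results of these data known. All 33 are named, and of each pathway list the genes past 2-fold in both genotypes, up to 6. A result under that rule is not reported here. The labels tie each sample to 1 mouse, and p-values measure the spread between mice.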

Additional observations from a re-analysis of the deposited data

Results flagged for a closer look

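Within the groups of 4 mice of 1 sex, genotype and treatment, 9 of 264 combinations of gene and group (3.41%) held a value whose gap to its nearest neighbour passed Dixon's 95% limit, where chance gives about 1 in 20. The values belonged to 7 mice. In wild-type mice, UV male 38M had 85.2 cpm of Ppm1d where the other 3 lay between 74.4 and 75.7 cpm, and control male 43M had the single Gdf15 read of its group, 0.0365 cpm, where the others had 0. In Ppard-/- UV males, 58M had 506 cpm of Ccng1 (others 349 to 376 cpm) and 321 cpm of Btg2 (others 237 to 244 cpm), and 61M had 243 cpm of Ei24 (others 272 to 278 cpm). The Ppard-/- UV female 54F had 44.2 cpm of Apaf1 (others 33.8 to 35.5 cpm) and 29.1 cpm of Sesn1 (others 10.5 to 11.8 cpm). Among Ppard-/- controls, female 60F had 191 cpm of Plk3 (others 138 to 142 cpm) and male 34M 11.8 cpm of Fdxr (others 6.88 to 7.65 cpm).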

How the results depend on the processing

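No paired analysis was run, because each number with its sex letter names a single mouse. Some numbers recur with the other letter, as in 52F (Ppard-/- UV) and 52M (Ppard-/- control), and the labels do not say what a shared number means. The 23 genes called higher in each genotype, which include Gdf15, numbered 19 and 20 or more under every alternative run. Where a fold change over 1.5 was also required, 2 genes were lower in wild-type and 3 in Ppard-/- mice, and of the upstream regulators 0 were higher in either genotype. With RLE scaling or DESeq2, 2 upstream regulators were higher in wild-type mice, and Gadd45a in wild-type mice gave 0.023 in both. DESeq2 called 2 genes for the genotype-by-UV interaction, 1 for the genotype difference after UV and 1 for the sex-by-UV interaction, and the fit with muscle and fibroblast covariates 1 for the last. With filterByExpr or no filter, 1 upstream regulator was higher in Ppard-/- mice, and without the filter Gadd45a gave 0.0037. In males alone, 1 DREAM gene was higher and 2 lower in wild-type mice, 1 upstream regulator was higher in Ppard-/- mice and Trp53 gave 0.054 in them. In females alone, 3 genes were lower in wild-type mice, 1 upstream regulator and 1 DREAM gene were higher in Ppard-/- mice, 3 genes passed between the genotypes after UV, and the wild-type values of Gadd45a and Bbc3 were 0.19 and 0.23. With 1 genotype fitted alone, 2 and 1 upstream regulators were higher in wild-type and Ppard-/- mice and 1 DREAM gene was lower in Ppard-/- mice. Leaving out 1 mouse, Gadd45a ran from -0.038 to 0.058 in wild-type mice. The interaction and the genotype difference after UV were called for 0 to 1 genes, and 4 to 6 genes were lower in wild-type mice. The DREAM list had 0 to 1 higher and 5 to 8 lower genes in wild-type and 0 to 2 lower in Ppard-/- mice, and 1 to 2 upstream regulators were higher in either genotype. Over all genes, the interaction was called for 119 (6 in males alone, 841 by DESeq2) and the genotype difference after UV for 514 (7 in males alone, 1383 in females alone), of which 81.3% were higher in Ppard-/- mice, 70.3% with RLE scaling and 64.9% by DESeq2. Of the interaction calls 67.2% were positive, 56.3% with RLE scaling and 53.03% by DESeq2. The Ppard-/- call of Ppm1d was lost in DESeq2, with RLE scaling, with filterByExpr and without the filter (adjusted p = 0.0536 to 0.184), in each sex alone and without single mice. Rrm2b was gained in wild-type mice fitted alone (adjusted p = 0.0493) or without single mice and lost in Ppard-/- females alone. In single sexes or without single mice, calls of Trp53 and Perp in wild-type and of Bbc3 and Plk3 in Ppard-/- mice changed. The cause was not tested. At a few cpm (Bbc3, Fas, Pidd1) and below 1 cpm (Gdf15), depth limits what differences could be seen.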
